A study of Mus musculus with 8 samples.

Results

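Interferon regulatory factors (IRFs) and signal transducers and activators of transcription (STATs) are the transcription factor families through which macrophages read microbial ligands, interferons and cytokines. The genes described here were 9 members of these families, Irf1, Irf2, Irf3, Irf5, Irf7, Irf8, Irf9, Stat2 and Stat3. They were chosen by name, with earlier results of these data known, from the 50615 genes of the deposited table. All 9 were among the 17625 genes that had at least 10 counts in sum over the libraries and were tested.

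IRFs that lie downstream of Toll-like receptors are phosphorylated in the cytoplasm, enter the nucleus and switch on type I interferon and cytokine genes. Secreted interferon then acts back on the macrophage through Janus kinases (JAKs), which assemble STAT2, IRF9 and a further STAT into the complex ISGF3 on interferon-stimulated genes. IRF1 and IRF2 bind related sites as activator and antagonist, IRF8 maintains the myeloid lineage, and STAT3 carries signals of IL-6 and IL-10.

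NCOA6 is a nuclear receptor coactivator. The study asked how its loss alters gene expression in macrophages, and used bone marrow-derived macrophages (BMDMs) of C57BL/6 mice, that is, marrow cells cultured for 6 days in M-CSF at 20 ng/ml. Ncoa6-sufficient cells came from Ncoa6 fl/fl mice, labelled WT, which carry the floxed gene without Cre. Ncoa6-KO cells came from Ncoa6 fl/fl LysM CRE mice, in which Cre made from the lysozyme 2 locus (Lyz2) deletes floxed Ncoa6 in myeloid cells, and no group carried Cre without the floxed gene. Cells of each genotype either stayed in medium or received LPS, a Toll-like receptor 4 ligand (100 ng/ml, 4 h), before monosodium urate (MSU) crystals (200 µg/ml, 2 h), and no group received LPS or MSU alone. Each of the 4 groups had 2 libraries, 8 in all. The study's methods state different mice, 2 per group, and do not say whether cells of the same mouse were used in both conditions.

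The libraries held 25281955 to 33673552 expected counts. Values below are normalized counts, that is, counts scaled by TMM to one common library size. Ncoa6 itself was 1515 and 1405 in Ncoa6-sufficient and 784 and 622 in KO cells kept in medium, and 1297 and 1173 against 563 and 526 with LPS + MSU. The study's floxed region is exon 7, and the counts are over the whole gene, so they do not measure how much intact Ncoa6 transcript was left. Its log2 fold changes were -1.05 ± 0.117 (SE, adjusted p = 0.00236 from edgeR) and -1.18 ± 0.124 (adjusted p = 0.00189 from edgeR). Roughly 48.2% and 44.1% of the gene-level count of Ncoa6 remained. The first call was lost without Flox_None replicate 1 (adjusted p = 0.0578 from edgeR). All 8 macrophage markers were present in every library, and 2 of 8 fell in KO cells, Lyz2 and Cd14 with medium alone and Lyz2 and Itgam with LPS + MSU. Their summed level was 394634 to 461438 against 257868 to 298530 with medium alone, and 494111 to 557641 against 367406 to 391121 with LPS + MSU, lower in Ncoa6-KO cells. Without Lyz2, which is also the locus of the Cre, the sums were 184741 to 189341 against 145875 to 170975 and 276776 to 287312 against 244142 to 261737, also lower in Ncoa6-KO cells. Of 7 T and NK cell markers, Cd3g, Cd8a, Ncr1 and Nkg7 were at 0 in all libraries and none passed 3 counts in any. Summed levels with medium alone were 2163 to 2167 against 2378 to 2688 for 9 monocyte and progenitor markers, and 940 to 1074 against 507 to 796 for 8 stromal and endothelial markers, sufficient against KO, with 1 of 9 (Cd34) and 0 of 8 called higher or lower by edgeR, 2 of the 8 at an unadjusted p under 0.05. With LPS + MSU the summed monocyte and progenitor markers were 1928 to 2252 against 1858 to 1870, lower in KO cells, with 0 of 9 called. There 3 of the 9 had an unadjusted p under 0.05, 4 had a log2 fold change below 0 and the median was 0.55. Summed stromal and endothelial markers with LPS + MSU were 7357 to 7690 against 3757 to 5674, with 0 of 8 called and 4 at an unadjusted p under 0.05. Most of these sums was 1 gene, Kdr, at 6214 and 6679 in sufficient and 5281 and 2965 in KO cells. Over all genes tested, 12.8% with medium alone and 17.4% with LPS + MSU had an unadjusted p under 0.05 in edgeR. The part of these differences in the results on the IRF and STAT genes was not tested.

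The promoters of the 9 genes were read for the binding motifs of these families, because IRFs and STATs are known to act on genes of their own families. The motifs were the core of the interferon-stimulated response element (ISRE), GAAANNGAAA, and the gamma-activated site (GAS), TTCNNNGAA, searched on both strands in the 250 bases before each RefSeq start (GRCm38.p6). The 9 genes had 12 RefSeq promoter records. The ISRE core occurred in 2.98% and the GAS in 7.02% of 32851 promoters, and at least one of them occurred in those of Irf1, Irf2, Irf8 and Stat2. The stretches that hold them read as follows on the strand of the gene, with the matches in capitals.

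Irf1 (chr11:53769899-53769957, plus strand, one GAS): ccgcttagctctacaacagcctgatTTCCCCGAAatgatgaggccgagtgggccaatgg

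Irf2 (chr8:46739495-46739554, plus strand, an ISRE core and a GAS): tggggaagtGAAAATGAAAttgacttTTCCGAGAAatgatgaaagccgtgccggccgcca

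Irf8 (chr8:120736162-120736238, plus strand, a pair of GAS): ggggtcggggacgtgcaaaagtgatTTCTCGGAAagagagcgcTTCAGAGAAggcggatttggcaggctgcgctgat

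Stat2 (chr10:128270251-128270310, plus strand, an ISRE core read on the opposite strand): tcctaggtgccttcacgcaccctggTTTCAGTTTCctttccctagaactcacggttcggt

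The first matched base lay 90 bases before the start in Irf1, 241 and 224 in Irf2, 171 and 153 in Irf8 and 222 in Stat2. One more motif searched, the NF-κB type GGGNNNTTCC, occurred in 4.65% of all promoters and, among the 9 genes, in that of Irf2, 17 bases before the start. Letters of the ISRE core, the GAS and this motif were not in the windows of Irf3, Irf5, Irf7, Irf9 and Stat3. A match describes the sequence and not a bound factor.

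Most of the IRF and STAT genes changed on stimulation with LPS + MSU, and few differed between genotypes past the threshold. In Ncoa6-sufficient BMDMs 9 of 9 genes passed the test, 8 higher and Irf3 lower, where 55.2% of all genes tested passed, 24.7% higher and 30.5% lower. In Ncoa6-KO BMDMs 8 of 9 passed, 7 higher and Irf3 lower, against 53.1% of all genes, 25.2% higher and 27.9% lower, and Irf8 did not. With medium alone, Irf7 and Stat2 were lower in Ncoa6-KO BMDMs, 2 of 9 genes, while 1.88% of all genes tested passed in either direction and 1.3% were lower. With LPS + MSU, 0 of 9 passed in edgeR and 2 had an unadjusted p under 0.05, while 3.59% of all genes passed and 17.4% had an unadjusted p under 0.05, and DESeq2 called 1 of 9, Stat3. The tests were edgeR's quasi-likelihood tests over all genes with an adjusted p under 0.05, and 2 libraries against 2 allow no exact permutation p below 0.333.

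**Figure D1:**
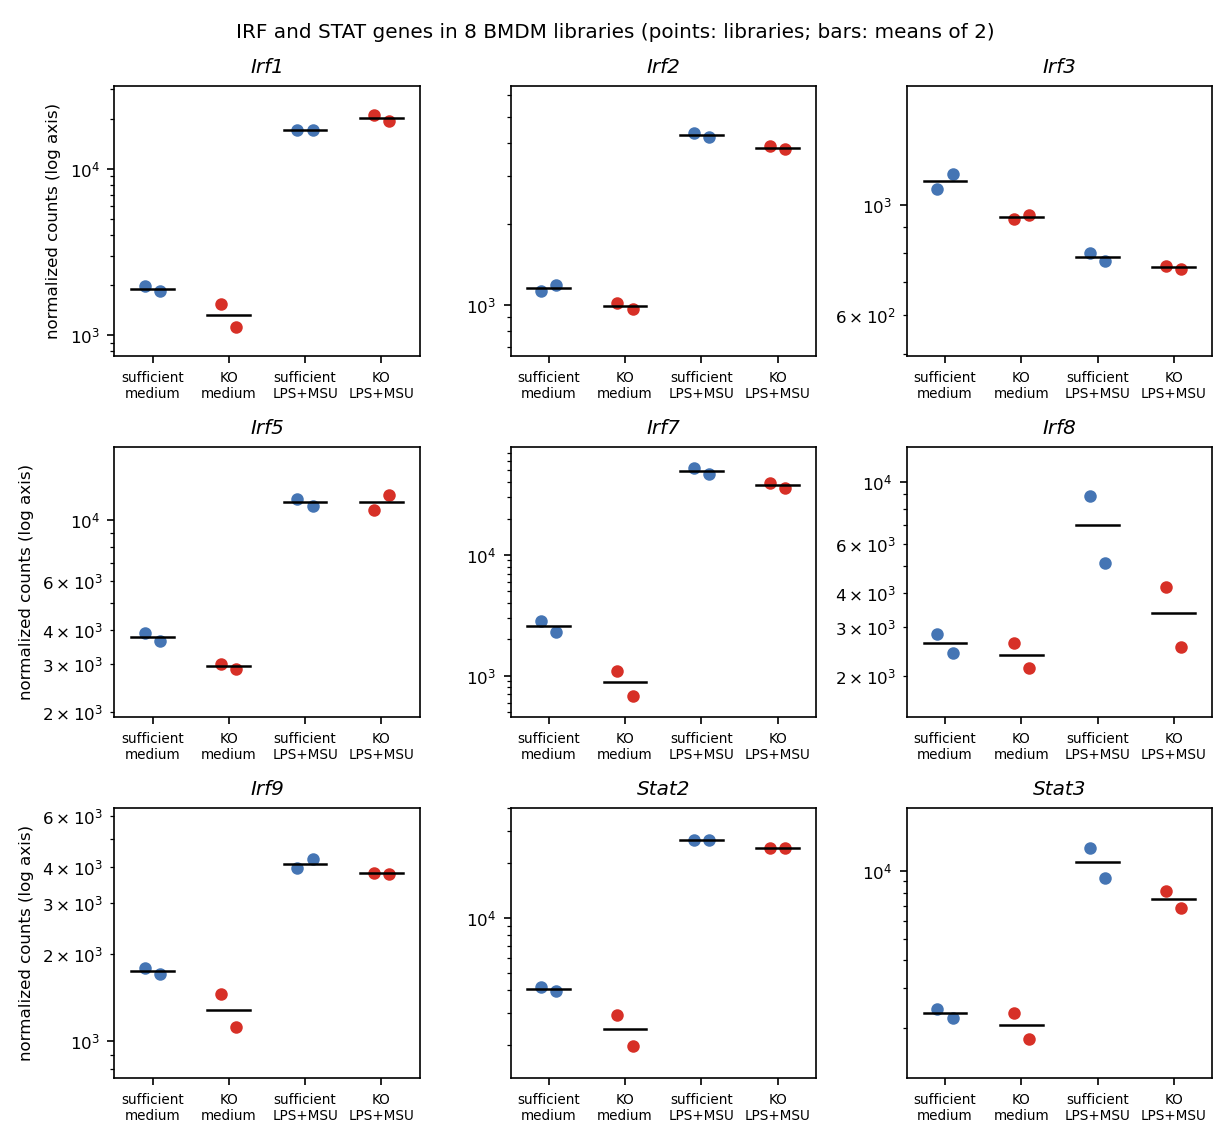
Normalized counts (log axis, a different range in each panel) of the 9 IRF and STAT genes in the 8 libraries, blue for Ncoa6-sufficient and red for Ncoa6-KO, with black bars at the means of 2 libraries. With medium alone the red points lie below both blue points for 7 of 9 genes, against 24.5% of all genes tested, and every gene but Irf3 lies higher in the 4 LPS + MSU libraries on average than in those with medium alone.

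Irf7, Irf3 and Irf5 encode the factors that act directly downstream of pattern recognition receptors. IRF7 is the interferon-inducible member that amplifies type I interferon production. Irf7 (GRCm38 chr7:141262706-141266481, minus strand; all gene positions are on this build) had 2857 and 2281 normalized counts in sufficient cells kept in medium and 1101 and 680 in KO cells. With LPS + MSU it had 52109 and 46624 in sufficient and 39495 and 35853 in KO cells. The genotypes did not overlap in either condition, and both KO libraries were the lower ones. With medium alone the difference was -1.53 ± 0.201 on the log2 scale (SE, adjusted p = 0.00568 from edgeR), so that the KO level was 34.7% of the sufficient level. With LPS + MSU it was -0.39 ± 0.192 (adjusted p = 0.333 from edgeR), with a 95% confidence interval from -0.81 to 0.03. Irf7 rose more than any other of the 9 genes on stimulation, 19.2-fold in sufficient cells (log2 fold change 4.26 ± 0.220) and 42.2-fold in KO cells (5.40 ± 0.234). The call with medium alone was lost without Flox_None replicate 1 (adjusted p = 0.0926 from edgeR), where the log2 fold changes without 1 library ran from -1.92 to -1.22.

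IRF3 is made constitutively and is activated by phosphorylation rather than by new synthesis. Irf3 (chr7:44997648-45002848, plus strand) had 1076 and 1154 normalized counts in sufficient and 936 and 953 in KO cells with medium alone, and 798 and 768 against 754 and 743 with LPS + MSU. It was the only one of the 9 genes whose level fell on stimulation, to 70.2% in sufficient cells (log2 fold change -0.51 ± 0.0887, adjusted p = 0.000473 from edgeR) and to 79.3% in KO cells (-0.34 ± 0.0890, adjusted p = 0.00792 from edgeR). With DESeq2 the KO cells missed the threshold (adjusted p = 0.0705). Genotype differences were -0.24 (adjusted p = 0.24 from edgeR) and -0.07 (adjusted p = 0.779 from edgeR).

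IRF5 acts downstream of MyD88 and drives inflammatory cytokine genes. Irf5 (chr6:29526625-29541871, plus strand) had 3899 and 3621 normalized counts in sufficient and 3000 and 2876 in KO cells with medium alone, without overlap. With LPS + MSU it had 11976 and 11237 in sufficient and 10928 and 12319 in KO cells, and the genotypes overlapped. It rose 3.09-fold and 3.96-fold on stimulation. Its genotype difference was -0.36 ± 0.102 with medium alone (adjusted p = 0.126 from edgeR, past the threshold with DESeq2), and with LPS + MSU the 95% confidence interval of the difference was -0.22 to 0.23.

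Stat2 and Irf9 encode components of ISGF3. Stat2 (chr10:128270559-128292849, plus strand) had 4150 and 3951 normalized counts in sufficient and 2934 and 1968 in KO cells with medium alone. With LPS + MSU it had 26706 and 26783 against 24278 and 24330. KO libraries were the lower ones in both conditions, by a margin that was wide with medium alone. The difference with medium alone was -0.72 ± 0.157 (adjusted p = 0.0464 from edgeR), or 60.5% of the sufficient level, and with LPS + MSU it was -0.14 ± 0.155 (adjusted p = 0.711 from edgeR). Stat2 rose 6.60-fold in sufficient and 9.91-fold in KO cells. The Stat2 call lay at the threshold: it was lost in 10 of 15 alternative analyses, over which the adjusted p ran from 2.88e-07 to 0.38, among them the fits without Flox_None replicates 1 or 2 and without MKO_None replicate 2. Every one of these gave a lower level in KO cells, from -1.04 to -0.46 where 1 library was left out.

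Irf9 (chr14:55603571-55610030, plus strand) encodes the DNA-binding part of ISGF3 that does not belong to the STATs. It had 1786 and 1713 normalized counts in sufficient and 1456 and 1118 in KO cells with medium alone, and 3954 and 4255 against 3821 and 3779 with LPS + MSU. The genotypes did not overlap in either condition. The differences were -0.44 ± 0.119 (adjusted p = 0.0998 from edgeR) and -0.11 ± 0.117 (adjusted p = 0.69 from edgeR), neither past the threshold. The first passed without MKO_None replicate 1. Its rise on stimulation was 2.35-fold and 2.95-fold, in sufficient cells the smallest among the 8 genes that rose.

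Irf1 and Irf2 encode the activator and the antagonist of a shared set of sites. Irf1 (chr11:53770014-53778374, plus strand) was the gene of the 9 whose genotype difference had opposite signs in the 2 conditions without overlap in either. It had 1973 and 1839 normalized counts in sufficient and 1544 and 1120 in KO cells with medium alone, and 17054 and 17184 against 20990 and 19331 with LPS + MSU. The differences were -0.52 ± 0.140 (adjusted p = 0.103 from edgeR) and 0.24 ± 0.137 (adjusted p = 0.423 from edgeR), so neither passed. Irf1 rose 8.98-fold in sufficient and 15.1-fold in KO cells. Without MKO_None replicate 1, and with DESeq2, the difference with medium alone passed the threshold.

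Irf2 (chr8:46739732-46847458, plus strand) had 1124 and 1182 normalized counts in sufficient and 1013 and 966 in KO cells with medium alone, and 4336 and 4215 against 3880 and 3792 with LPS + MSU. Libraries of the same group lay close together, and those of KO cells were slightly lower in both conditions. The differences were -0.22 ± 0.0862 (adjusted p = 0.293 from edgeR) and -0.16 ± 0.0841 (adjusted p = 0.382 from edgeR). The rises on stimulation, 3.71-fold and 3.88-fold, were near each other, and the 95% confidence interval of their difference was -0.20 to 0.33 on the log2 scale.

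Irf8 encodes the factor that commits progenitors to the monocyte and macrophage lineage and cooperates with other IRFs on cytokine genes. Irf8 (chr8:120736358-120756694, plus strand) had 2835 and 2429 normalized counts in sufficient and 2645 and 2138 in KO cells with medium alone, which overlapped. With LPS + MSU it had 8885 and 5113 against 4181 and 2551, so all KO libraries were lower, and the 2 libraries of each group lay far apart. Irf8 rose 2.66-fold in sufficient cells (log2 fold change 1.41 ± 0.261, adjusted p = 0.000732 from edgeR). In KO cells the change was 0.49 ± 0.258 (adjusted p = 0.133 from edgeR) and the libraries with and without stimulus overlapped, though the change passed without MKO_LM replicate 2. Its genotype difference with LPS + MSU was -1.06 ± 0.259, the largest of the 9 genes in that condition, or 48.1% of the sufficient level, and just missed the threshold (adjusted p = 0.0528 from edgeR). It passed in 6 of 15 alternative analyses, among them those without Flox_LM replicate 2, MKO_LM replicate 1 or MKO_None replicate 2, and over all 15 the adjusted p ran from 2.51e-17 to 0.387. IRF8 also acts in dendritic cells and B cells, and with LPS + MSU the summed level of 10 dendritic cell markers was 295 to 350 in sufficient and 229 to 244 in KO cells, and that of 6 B cell markers 28.9 to 31.9 against 8.39 to 13.1. Both sums were lower in KO cells without overlap, and 3 of each list were at or under 3 counts in every library. In edgeR 0 of 7 dendritic cell and 0 of 3 B cell markers tested were called, with 1 of each at an unadjusted p under 0.05. Below 0 were 6 of the 7 and 3 of the 3. Most of the B cell sum in sufficient cells was Cd79b, at 20.8 and 19.3 against 10.5 and 2.80 in KO cells. The largest dendritic cell marker, Xcr1, overlapped between genotypes, at 169 and 139 against 98.0 and 144. The part of these markers in the Irf8 values was not tested. With medium alone these sums overlapped between genotypes.

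STAT3 carries the signals of IL-6 and of the anti-inflammatory cytokine IL-10. Stat3 (chr11:100885098-100939540, minus strand) had 2432 and 2208 normalized counts in sufficient and 2323 and 1788 in KO cells with medium alone, and 12717 and 9283 against 8171 and 6864 with LPS + MSU. The genotypes overlapped with medium alone and did not overlap with LPS + MSU. Its genotype difference was -0.17 ± 0.167 (adjusted p = 0.753 from edgeR) and -0.55 ± 0.165 (adjusted p = 0.107 from edgeR), the latter past the threshold with DESeq2 and without Flox_LM replicate 2. Stat3 rose 4.74-fold in sufficient and 3.66-fold in KO cells.

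Side by side, the genotype difference with medium alone was below 0 for 9 of 9 genes, with a median of -0.36 beside -0.03 over all genes tested. The libraries did not overlap and were lower in KO cells for 7 of 9, against 24.5% of all genes. Because the 9 genes were chosen with earlier results of these data known, such shares are no test of the set. With LPS + MSU the median was -0.14 beside 0.00, 7 of 9 genes were lower in KO cells without overlap, against 22.8% of all genes, and Irf1 was higher without overlap, against 24.6%. With medium alone 0 of 9 genes were called without Flox_None replicate 1, 4 without MKO_None replicate 1, and 1 without any one of the other 6 libraries. With LPS + MSU 2 of 9 were called without Flox_LM replicate 2, and 1 without MKO_LM replicate 1 or MKO_None replicate 2. In KO cells with medium alone, the library labelled replicate 2 was the lower one for 8 of 9 genes, and in the other groups it was so for 6 to 7 of 9, against 47.3% to 51.8% of all genes over the 4 groups.

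**Figure D2:**
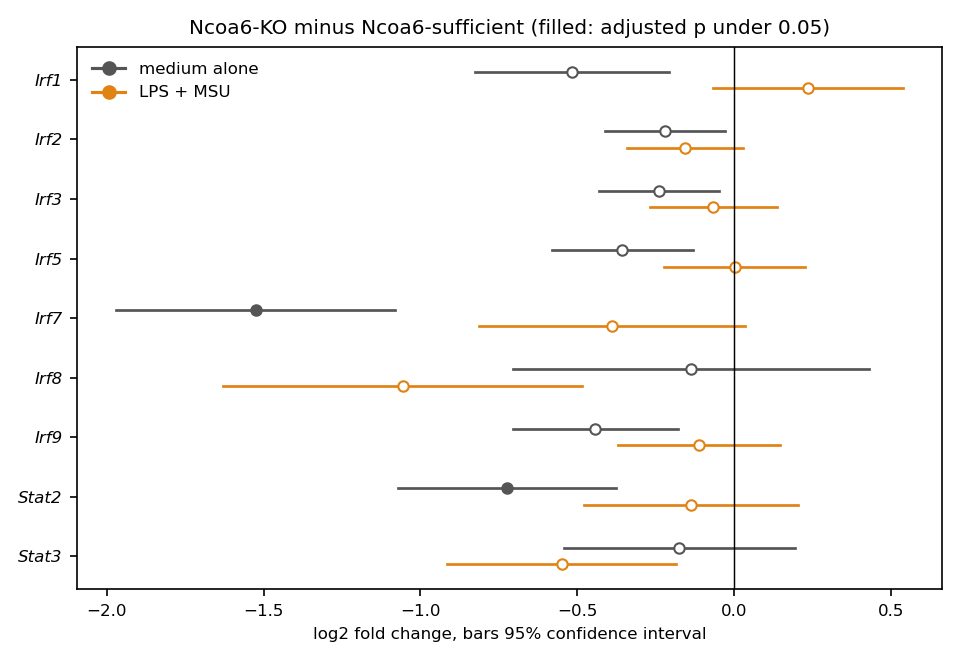
Log2 fold change of Ncoa6-KO minus Ncoa6-sufficient BMDMs (x axis) for the 9 genes with medium alone (grey) and with LPS + MSU (orange), with 95% confidence intervals and filled points where the adjusted p was under 0.05. Irf7 at -1.53 and Stat2 at -0.72 with medium alone are the filled points, and Irf8 at -1.06 lies furthest left with LPS + MSU.

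Whether the knockout difference itself changed with stimulation was tested as the interaction. In edgeR 0 of 9 genes passed, 5 of 9 had an unadjusted p under 0.05, and 0 of all 17625 genes passed (0% called, 1045 with an unadjusted p under 0.05). The interaction terms of these 5 genes were 1.14 for Irf7 (adjusted p = 0.45 from edgeR), 0.75 for Irf1 (adjusted p = 0.498), 0.59 for Stat2 (adjusted p = 0.734), 0.36 for Irf5 (adjusted p = 0.799) and -0.92 for Irf8 (adjusted p = 0.786). A positive value means a larger rise on stimulation in KO cells. DESeq2 called 1 of 9 genes, Irf7, which also passed in edgeR without MKO_None replicate 1. In edgeR with no filter on low counts, and with the replicate number as a block, the terms of Irf7, Irf1 and Irf8 passed, so over all alternatives the adjusted p of Irf1 ran from 0.00188 to 1 and that of Irf8 from 7.97e-06 to 1. For the other 6 genes no setting that was run gave a call.

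**Figure D3:**
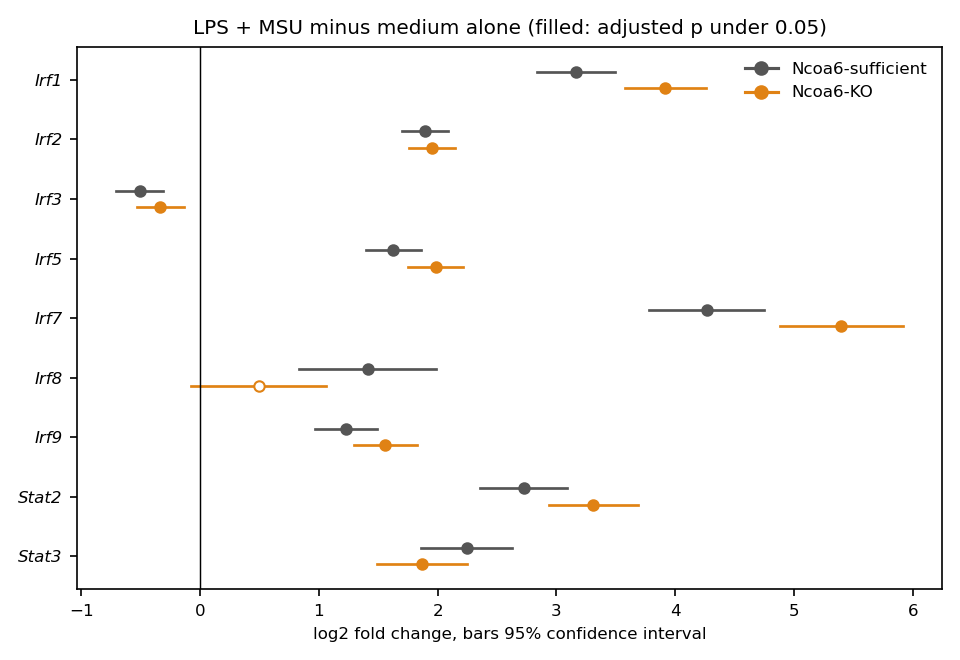
Log2 fold change of LPS + MSU minus medium alone (x axis) for the 9 genes in Ncoa6-sufficient (grey) and Ncoa6-KO (orange) BMDMs, with 95% confidence intervals and filled points where the adjusted p was under 0.05. Irf7 rose most in both genotypes, Irf3 alone lies below 0, and Irf8 in KO cells is the open point at 0.49.

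Levels are given per length, as counts per kilobase of exon and 1000000 scaled counts. The length was the union of exons over all annotated transcripts of a gene, not that of the mRNA made. For Irf7 it was 3776 bases, the whole span of the gene with its introns. The order of genes within a group depends on these lengths and does not settle which mRNA was more abundant. In sufficient cells kept in medium Irf5 had the highest value of the 9 genes, 44.1 ± 2.31 (SD, n = 2). Next came Stat2 at 23.3 ± 0.811 and Irf7 at 23.2 ± 3.68, whose ranges overlapped. Irf1 followed at 16.3, Irf8 at 12.7, Irf9 at 11.1 and Irf3 at 11.0, the last pair with overlapping ranges, and Stat3 at 8.30 and Irf2 at 5.31 were lowest. In KO cells with medium alone Irf5 (34.5 ± 1.03) again led. Stat2 (14.1 ± 3.93) came next, with a range that overlapped those of Irf8 (11.6) and Irf1 (11.4). Irf7 stood seventh at 8.04 ± 2.69, with a range that overlapped those of Irf1, Irf3 (9.36), Irf9 (8.15) and Stat3 (7.35). With LPS + MSU Irf7 was first in both genotypes, at 446 ± 35.0 in sufficient and 340 ± 23.3 in KO cells. Stat2 (154), Irf1 (147) and Irf5 (136) came next in sufficient cells, and Irf1 (173), Stat2 (140) and Irf5 (136) in KO cells, the last pair with overlapping ranges. Irf8 stood sixth at 33.8 ± 12.9 in sufficient cells, with a range that overlapped those of Stat3 (39.4) and Irf9 (26.0), and eighth at 16.3 ± 5.57 in KO cells, where its range overlapped that of Irf2 (17.7). Irf3 had the lowest value with LPS + MSU in both genotypes, at 7.76 and 7.41.

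**Figure D4:**
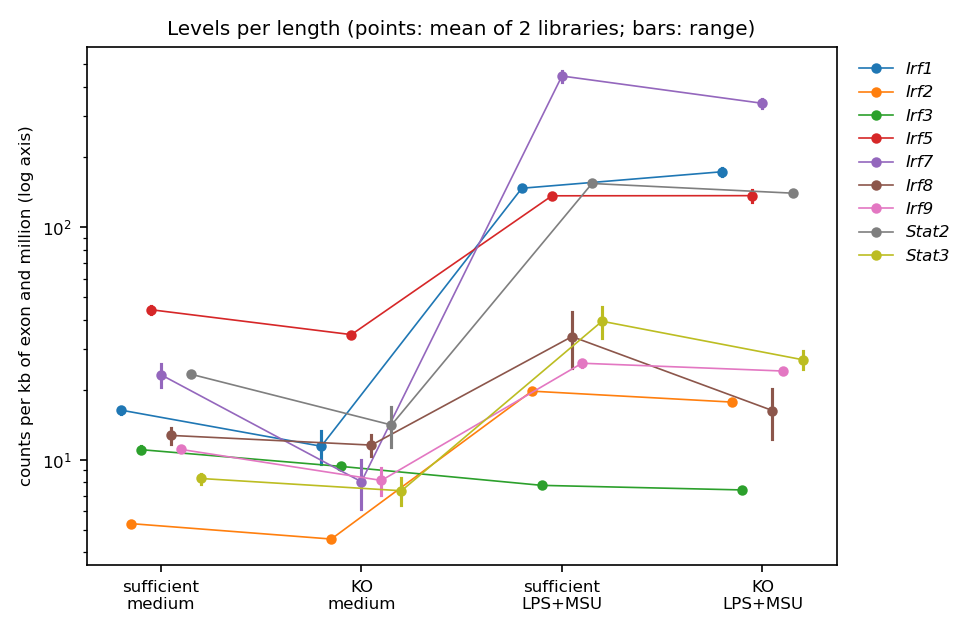
Levels per length (counts per kilobase of exon and 1000000 scaled counts, log axis) of the 9 genes in the 4 groups, points at the mean and bars over the range of 2 libraries. Irf5 is highest with medium alone and Irf7 with LPS + MSU, and Irf7 lies at 23.2 in sufficient and 8.04 in KO cells with medium alone.

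Several of these genes share genomic sequence with neighbours, and whether the counting used strand is not given in the sources used here. Gm17334, on the opposite strand at Irf1, had between 3.38% and 4.22% of the count of Irf1 in every library and the pattern nearest to it. Rnf31, on the same strand at Irf9, had between 50.1% and 166% of the count of Irf9, and Gm20388, on the same strand at Irf8, between 19.3% and 92.9% of the count of Irf8. Gm20388 had 1716 and 1949 normalized counts in sufficient and 1774 and 1214 in KO cells with LPS + MSU, so its libraries overlapped between genotypes where those of Irf8 did not. On opposite strands, Tnpo3 had between 24.5% and 72.3% of the count of Irf5, Phrf1 between 2.88% and 220% of that of Irf7, Stat5a between 17.8% and 37.0% of that of Stat3 and Bcl2l12 between 6.97% and 16.3% of that of Irf3. Expected counts of Irf1 and Irf5 were not whole in any of the 8 libraries, so some of their reads were shared out by estimation, and those of the other 7 genes were whole in all 8. How many reads these genes and their neighbours exchange was not tested.

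Around the 9 genes, pathway lists were described by their counts and medians. Over all genes tested, 12.8% had an unadjusted p under 0.05 between genotypes in medium and 17.4% after LPS + MSU, for comparison with the unadjusted counts of each list. At the adjusted threshold 1.88% and 3.59% of all genes passed. Of 13 interferon and gp130 receptor, ligand and JAK genes, 0 passed in either condition in edgeR (5 and 7 at an unadjusted p under 0.05), with medians of -0.09 and -0.18. Ifnar1, a chain of the type I interferon receptor, was -0.33 with LPS + MSU (adjusted p = 0.0846 from edgeR), and Ifnb1, which encodes interferon beta, had 334 and 253 normalized counts in sufficient and 204 and 157 in KO cells (log2 fold change -0.70, adjusted p = 0.0867 from edgeR). Of 13 kinases and adaptors upstream of IRFs 0 passed in edgeR (2 and 5 at an unadjusted p under 0.05), with medians of -0.09 and -0.09. Myd88, the adaptor of most Toll-like receptors, was nearest the threshold with medium alone (-0.55, adjusted p = 0.0558 from edgeR). DESeq2 called 0 and 3 of the receptor list, and 2 and 1 of the kinase list, with medium alone and with LPS + MSU.

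Of 7 further IRF and STAT family genes 0 passed in either condition in edgeR (2 and 1 at an unadjusted p under 0.05), with medians of 0.00 and 0.08, and DESeq2 called 1 with medium alone. Stat4 was 109 and 108 in sufficient and 139 and 182 in KO cells with medium alone (log2 fold change 0.56, adjusted p = 0.154 from edgeR), and Stat6, which carries the signal of IL-4, was 2803 and 2881 against 3263 and 3647 with LPS + MSU (0.28, adjusted p = 0.148 from edgeR). Stat5a rose on stimulation in sufficient cells (1.61) and Stat6 fell (-0.96). Among 12 binding partners of IRFs and STATs, Ifi35 (-0.72, adjusted p = 0.00933 from edgeR) and Nmi (-0.69, adjusted p = 0.0382 from edgeR), interferon-inducible proteins that bind each other, fell in KO cells with medium alone. With LPS + MSU 1 of the 12 passed: Irf2bp2, a corepressor of IRF2, was higher in KO cells, at 1013 and 1033 against 484 and 600 (0.92, adjusted p = 0.00518 from edgeR). Among 12 negative regulators of JAK-STAT signalling, Usp18, an ISG15 protease that blocks the interferon receptor, fell with medium alone (-0.90, adjusted p = 0.025 from edgeR), and it also counts among the ISGF3 targets. Ptpn6, the phosphatase SHP-1, fell in both conditions (-0.59, adjusted p = 0.0317, and -0.48, adjusted p = 0.0498 from edgeR). The calls among partners with medium alone were 0 without Flox_None replicate 1 or MKO_None replicate 2, and 1 without either Flox_LM library, Flox_None replicate 2 or MKO_None replicate 1. Those among regulators were 0 without either Flox_None library or MKO_None replicate 2, and 1 without either Flox_LM library or MKO_None replicate 1. With LPS + MSU the Irf2bp2 call was lost without Flox_LM replicate 1 or MKO_LM replicate 2, and the Ptpn6 call without either Flox_LM library, either Flox_None library or MKO_LM replicate 2. The list medians of these partners were -0.09 and -0.19 and of the regulators -0.08 and -0.03.

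Genes that IRFs and STATs are known to regulate were described in 4 lists, which were also chosen with earlier results of these data known. In the interaction 0 of 28 ISGF3 targets, 0 of 22 IRF1 and gamma-activated targets, 0 of 10 IRF8-linked genes and 0 of 13 STAT3 targets passed in edgeR, with 20, 8, 0 and 4 at an unadjusted p under 0.05 against 5.93% of all genes, and DESeq2 called 4, 2, 0 and 0. Counts in the 2 conditions thus stand side by side with no difference between them shown by edgeR's test. Of 28 ISGF3 target genes, 18 fell in KO cells with medium alone, where 1.3% of all genes tested were lower. A value below 0 was found for 27 of 28, and the median was -1.02 beside -0.03 over all genes. Mx1, an antiviral GTPase, had 751 and 809 normalized counts in sufficient and 334 and 205 in KO cells (log2 fold change -1.53, adjusted p = 0.00593 from edgeR). Oasl1 (-1.55), Ifit3 (-1.35) and Cmpk2 (-1.04) fell as well. With LPS + MSU 0 of the 28 passed in edgeR and in DESeq2 (3 at an unadjusted p under 0.05 in edgeR), all 28 values were below 0, and the median was -0.26. Mx1 then had 128685 and 161288 against 120621 and 123581. The count of 18 with medium alone was 0 without Flox_None replicate 1, 5 without Flox_None replicate 2, 6 without MKO_None replicate 2 and 11 without MKO_LM replicate 2, and all-gene calls fell likewise, from 331 to 22, 81, 103 and 255. Of 22 IRF1 and gamma-activated target genes 7 fell with medium alone, with a median of -0.64, and 0 passed with LPS + MSU in edgeR and in DESeq2 (3 at an unadjusted p under 0.05 in edgeR), with a median of -0.20. The chemokine gene Cxcl10 had 250 and 330 against 93 and 89 with medium alone (-1.67, adjusted p = 0.00205 from edgeR), and the guanylate-binding protein genes Gbp5 (-1.47), Gbp7 (-1.01) and Gbp3 (-1.32) fell too. That count of 7 was 1 without either Flox_None library, 2 without MKO_None replicate 2 and 11 without MKO_None replicate 1.

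Of 13 STAT3 target genes 6 fell in KO cells with LPS + MSU (7 at an unadjusted p under 0.05 in edgeR). In that condition 3.59% of all genes passed in either direction, and the list median was -0.58 beside 0.00 over all genes. With medium alone 1, Bcl3, fell (7 at an unadjusted p under 0.05 in edgeR), where 1.3% of all genes were lower. The median was then -0.38. With LPS + MSU Il1rn, the IL-1 receptor antagonist, had 63118 and 37978 normalized counts in sufficient and 22727 and 17200 in KO cells (log2 fold change -1.34, adjusted p = 0.0157 from edgeR). Il4ra, a chain of the IL-4 receptor (-0.91, adjusted p = 0.0152), Zfp36, which destabilizes cytokine mRNAs (-0.82, adjusted p = 0.0155), and Sbno2, an IL-10-inducible corepressor (-0.58, adjusted p = 0.0177), fell as well. Bcl3 with medium alone was lost without either Flox_None library, either MKO_LM library or MKO_None replicate 2. The count of 6 was 0 without Flox_LM replicate 1 or MKO_LM replicate 2 and 2 without MKO_LM replicate 1. Of 10 genes linked to IRF8 in macrophages 0 passed in either condition in edgeR (3 and 4 at an unadjusted p under 0.05), with medians of -0.43 and -0.29, and the first was -0.31 where a gene at or under 3 counts was set to its bound. DESeq2 called 3 and 1 of these 10. Il18 was nearest to the threshold with medium alone (-0.57, adjusted p = 0.061 from edgeR).

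**Figure D5:**
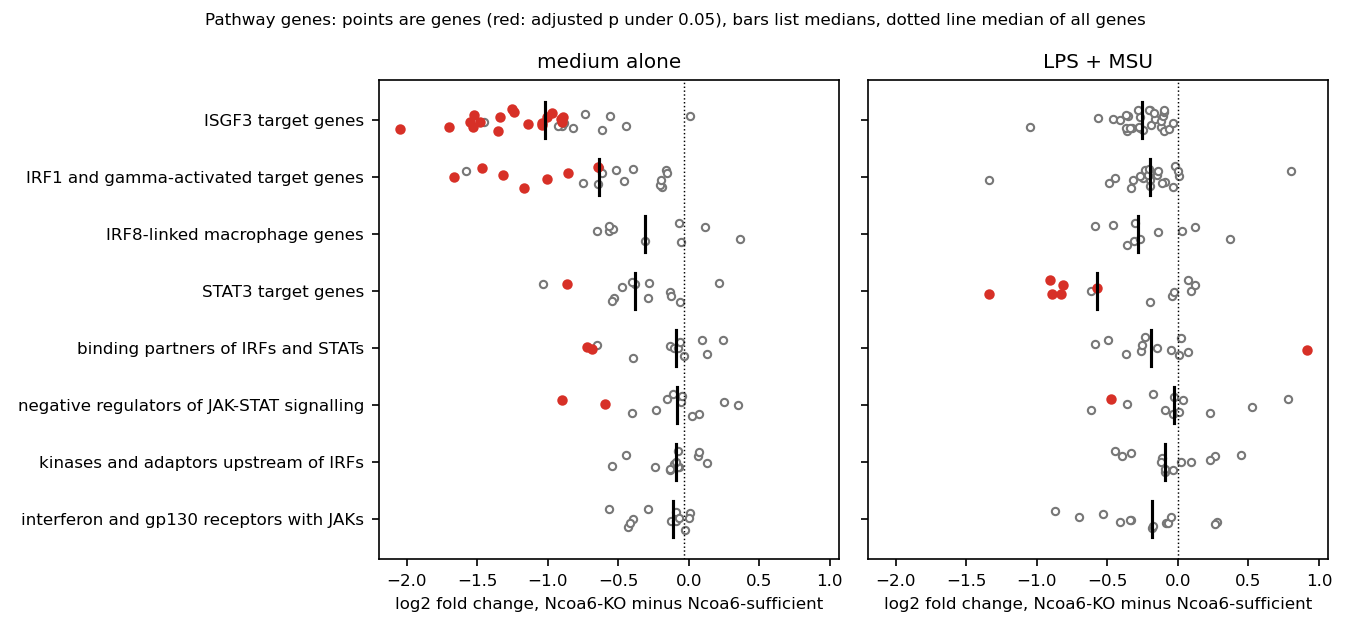
Log2 fold change of Ncoa6-KO minus Ncoa6-sufficient BMDMs (x axis) for genes of 8 pathway lists (rows) with a mean over 10 normalized counts in at least one group, medium alone on the left and LPS + MSU on the right. Points are genes, red where the adjusted p was under 0.05, black bars are medians of the genes drawn, and the dotted line is the median of all genes tested. ISGF3 targets lie furthest left with medium alone, and STAT3 targets hold 6 red points with LPS + MSU.

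The stimulus itself raised 27 of 28 ISGF3 targets in both genotypes, with medians of 4.30 in sufficient and 5.11 in KO cells, and 22 of 22 IRF1 and gamma-activated targets, with medians of 4.71 and 5.16. All 13 STAT3 targets rose in sufficient and 12 in KO cells. Of the negative regulators 8 of 12 rose and 3 fell in both genotypes. For the 13 receptor, ligand and JAK genes these counts were 8 and 3, and for the 12 binding partners 6 and 3. Of 13 kinases and adaptors 7 rose and 4 fell in sufficient cells, and 6 and 4 in KO cells. Among 10 IRF8-linked genes 8 rose in both genotypes. For comparison, 24.7% of all genes tested rose and 30.5% fell in sufficient cells, and 25.2% and 27.9% in KO cells. Scaling by DESeq2's size factors in place of TMM moved the response of all genes in sufficient cells upward by a median of 0.11 on the log2 scale, and the direction of each of the 9 IRF and STAT responses was the same under both.

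For each gene the pattern over the 8 libraries was compared with those of 11219 genes whose mean reached 50 normalized counts, as the root mean square distance of centred log2 values. Ifi211 (0.156), Gm12250 (0.166) and Mmp14 (0.190) were nearest to Irf7. Nearest to Stat2 were Trafd1 (0.0791), Trim30a (0.0809) and Cd14 (0.0937), the LPS coreceptor. Parp10 (0.146) and Sp110 (0.148) followed Gm17334 (0.106) at Irf1. Rab43 (0.103), Uaca (0.189) and Btg2 (0.213) were nearest to Irf8, and Prkx (0.0650), Inpp5b (0.0895) and Ppp1r15b (0.0927) to Stat3. The macrophage surface marker Adgre1 was the second nearest to Irf9 (0.0955) after Gm45752 (0.0732). Irf2 had the closest neighbour of all, Slc4a7 (0.0440), and Irf3 was nearest to Phkg2 (0.0441) and Irf5 to Trim56 (0.0818). The 8 points of each gene share libraries and fall into medium and LPS + MSU groups, so these distances describe the order of genes and carry no test.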

How the data were processed

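BMDM RNA of 8 libraries (4 groups of 2) was analysed. The authors sequenced stranded poly(A) libraries in pairs of 100 bp reads and deposited expected counts per gene, not normalized. The submitters' processing notes name STAR 2.7.3a, RSEM 1.3.3, MultiQC, DESeq2 and GRCm38, and the study's methods annotation release 101. Whether counting used strand is not given in the sources used here.

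Expected counts were rounded (8.95% of the deposited values were not whole) and genes below 10 counts in sum left out. edgeR 4.0.16 (R 4.3.3) with TMM fitted the 4 groups together by quasi-likelihood, with 4 residual degrees of freedom, and tested genotypes within a condition, conditions within a genotype and their interaction. Genes were called at a Benjamini-Hochberg adjusted p under 0.05 over 17625 genes. A "±" after a log2 fold change is the SE. Alternatives were DESeq2 1.42.0, which the study used, its size factors in edgeR, filterByExpr, no filter, limma-voom (limma 3.58.1) on unrounded counts, a replicate block, only the 4 libraries compared, and each library left out. A group left with 1 library was assumed to vary like the others. Code was tested on simulated data. Floors are 3 counts and cover counting error only. Depth limits genes at a few counts, not the 9 IRF and STAT genes.

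Exon lengths, positions and neighbours came from GENCODE vM21 (GRCm38), promoters from RefSeq (GRCm38.p6). The IRF and STAT genes and the gene lists were chosen with earlier results of these data known. One listed kinase-list gene of 14 was not found by its symbol. From each list at most 4 genes were named, those with the smallest p in the comparison described, and all genes could be named for further IRFs and STATs. Among the cell type markers Kdr, Cd79b and Xcr1 were named for their share of the sums. For each of the 9 genes the nearest 3 by pattern could be named.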

Additional observations from a re-analysis of the deposited data

Results flagged for a closer look

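The interaction of genotype and stimulus for Irf1 was 0.75 on the log2 scale. It drew attention because both Ncoa6-KO libraries were below both Ncoa6-sufficient libraries with medium alone and above both with LPS + MSU. The test of the difference itself gave an adjusted p of 0.498 from edgeR over all genes, so it did not pass.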

How the results depend on the processing

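Directions of the LPS + MSU response held for all 9 IRF and STAT genes in every alternative run, with 9 of 9 called in Ncoa6-sufficient and 8 to 9 of 9 in Ncoa6-KO BMDMs without 1 library. In Ncoa6-KO cells the call of Irf3 was lost with DESeq2 (adjusted p = 0.0705), and Irf8 passed with no filter and with the replicate block. Calls between genotypes also depended on the setting. The 2 of 9 with medium alone became 4 with DESeq2, 1 with its size factors in edgeR, 1 with filterByExpr, 4 with no filter, 1 with only the 4 libraries compared, and 0 to 4 without 1 library. The 0 of 9 with LPS + MSU became 1 with DESeq2, 1 with its size factors, 3 with no filter and 0 to 2 without 1 library. The interaction's 0 of 9 became 1 with DESeq2, 3 with no filter and 0 to 1 without 1 library. The cause was not tested, except that a fit without a library or of 4 libraries holds fewer samples.

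Libraries share the numbers 1 and 2 across groups, and no source used here says that they mark the same mouse. Deviations of same-numbered libraries correlated over genes at 0.285 between the 2 conditions in sufficient cells and at 0.353 in KO cells. Between genotypes these correlations ran from 0.0433 to 0.193. The replicate block was run across all groups, and a pairing of the conditions within each genotype was not tested. With the replicate block the calls were 5, 2 and 3 of 9 for medium alone, LPS + MSU and the interaction, and over all genes 1023, 1532 and 86.

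Over all genes, calls of 331 with medium alone, 632 with LPS + MSU and 0 in the interaction became 1152, 1611 and 269 with no filter, 496, 849 and 43 with DESeq2, and 22 to 351, 49 to 765 and 0 to 16 without 1 library. LPS + MSU with only the 4 libraries compared gave 347.

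Of 666 values of single IRF and STAT genes under alternatives 615 kept their direction and side of the threshold, 31 came to pass it, 12 no longer passed and 8 changed sign, all of these from values close to 0. With medium alone and MKO_None replicate 2 left out, Irf8 became 0.00742 and Stat3 0.00212, and the values without 1 library ran from -0.299 to 0.00742 and from -0.375 to 0.00212. With LPS + MSU Irf5 became -0.0357 with DESeq2 and with its size factors, and ran from -0.0904 to 0.0685 without 1 library, below 0 without Flox_LM replicate 2 (-0.0556) or MKO_LM replicate 2. The interaction of Irf2 ran from -0.00921 to 0.0987 and that of Ncoa6 from -0.285 to 0.0494 without 1 library. Levels per kilobase without a library leave 1 value in that group and were not run.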
